A study of Mus musculus with 4 samples.

Results

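Fatty acid oxidation, ketogenesis and peroxisomal enzymes were followed in the liver of Gdown1 knockout mice. The genes were 37 named enzymes and carriers of these pathways, each matched by exact symbol to the authors' gene names, with the probe set of the highest mean taken where a gene had several. Of the 37, 36 had a probe set with that symbol alone, out of 29432 genes tested. Cpt1b, the muscle form of carnitine palmitoyltransferase, shared its probe set with other symbols and was not analysed here. Total RNA of whole liver was hybridised to MoGene 2.0 ST arrays from Affymetrix, whose probes lie along the length of each transcript. The groups were KO, with Gdown1 knocked out, on 2 arrays, and FF, the control, also on 2 arrays. All were C57BL/6 mice aged 8 weeks, untreated, on a standard diet and killed around midday. In the header of the authors' deposited table KO stands as Alb-cre and FF as f/f. Cre driven by the albumin promoter acts mainly in hepatocytes, so other liver cells may keep the gene. Without Cre-only controls, Cre and the deletion cannot be told apart. The labels give no sex, scan date or pairing of animals. Both samples of each group are marked as biological replicates.

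In the liver, long fatty acids are activated to acyl-CoA, carried into mitochondria on carnitine and shortened in repeated cycles of dehydrogenation, hydration, a further dehydrogenation and thiolysis. The acetyl-CoA released feeds the citric acid cycle or, in fasting, the synthesis of ketone bodies. Peroxisomes run a parallel cycle on very long, branched and dicarboxylic acyl-CoAs and on the side chains of bile acid precursors, and pass the shortened products on as carnitine esters. Many genes of both routes are induced by the fatty acid receptor PPARA. Thioesterases and nudix hydrolases split acyl-CoA or CoA itself and so set how much CoA is free.

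The targeted gene was lower on the arrays labelled KO. Polr2m, which encodes Gdown1, had log2 values of 6.35 and 6.18 on the KO arrays, against 7.35 and 7.38 on the FF arrays (limma adjusted p = 0.0215). With all 41345 probe sets tested in place of named genes, this call was lost (limma adjusted p = 0.0859). The sources used here do not say whether its probes lie in the deleted part. Background was set at a log2 value of 2.82, the level under which 95% of 1127 olfactory receptor genes lay, which liver is not known to express. All 7 measured hepatocyte markers lay far above it. The median of their log2 fold changes was -0.13, with 0 passing the limma test (2 at an unadjusted p under 0.05). Each of the 7 had a lower mean in KO. For 6 of them both KO arrays lay below both FF arrays, against 25% of all genes tested. Markers of several other liver cells had higher means in KO. All 5 cholangiocyte markers had a higher mean in KO, with a median log2 fold change of 1.34, and 0 passed (4 at an unadjusted p under 0.05). Their summed signal was 9.06 and 8.62 in KO and 7.10 and 7.81 in FF on the log2 scale, and Krt7 lay at or below background. All 6 stellate markers had a higher mean too, with Reln and Col1a1 passing, and their sum was 11.27 and 11.02 in KO and 10.41 and 10.20 in FF. The sum of the 5 macrophage markers was 10.001 and 9.501 in KO and 8.95 and 8.99 in FF, with 0 passing (4 at an unadjusted p under 0.05). The hepatocyte sum was 14.58 on both KO arrays, against 14.75 and 14.77 on the FF arrays. The sum of the 5 endothelial markers was 9.68 and 9.75 in KO and 9.51 and 9.40 in FF, and that of the 5 lymphocyte markers 6.63 and 5.92 in KO and 5.84 and 5.92 in FF, with 0 passing in either list (2 and 1 at an unadjusted p under 0.05). The part of cell composition in the results below was not tested, and in whole liver fewer cells of a type cannot be told apart from less RNA per cell. All 5 adipocyte markers lay at or below background, as did Ckm and Myl1 of the 5 muscle markers, and 0 passed in either list (0 also at an unadjusted p under 0.05).

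Of the 36 genes, 2 rose and 2 fell at a limma adjusted p under 0.05, and 32 did not pass. Among all genes tested 0.996% rose and 0.778% fell, or 1.77% in either direction, and among the 15260 genes above background 1.91% rose and 1.46% fell. At an unadjusted p under 0.05, 10 of the 36 were higher and 5 lower, against 9.38% and 7.6% of all genes tested. Among the 15260 genes above background, 2509 were higher and 1624 lower at that threshold. The rises were the thioesterase genes Acot2 and Acot1, and the falls were the peroxisomal genes Nudt7 and Acox2. All 36 lay above background by their mean. Both KO arrays lay above both FF arrays for 19 genes, below for 6, and the groups overlapped for 11. Over all genes those shares were 21.6% above and 25% below, and over the genes above background 31.5% and 24%. The median log2 fold change of the 36 was 0.21, against -0.02 over all genes tested and 0.03 over those above background. Taken singly against the FF mean, the KO arrays gave medians of 0.12 for replicate 1 and 0.27 for replicate 2. When any 1 array was dropped, 0 of the 29432 genes passed in limma, the 36 included, while 3364 to 3958 genes had an unadjusted p under 0.05. One group is then a single array, assumed to vary like the other group, with 1 residual degree of freedom, so this loss of calls says nothing about stability. With all probe sets tested, 0 of the 36 passed in limma (15 at an unadjusted p under 0.05).

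**Figure D1:**
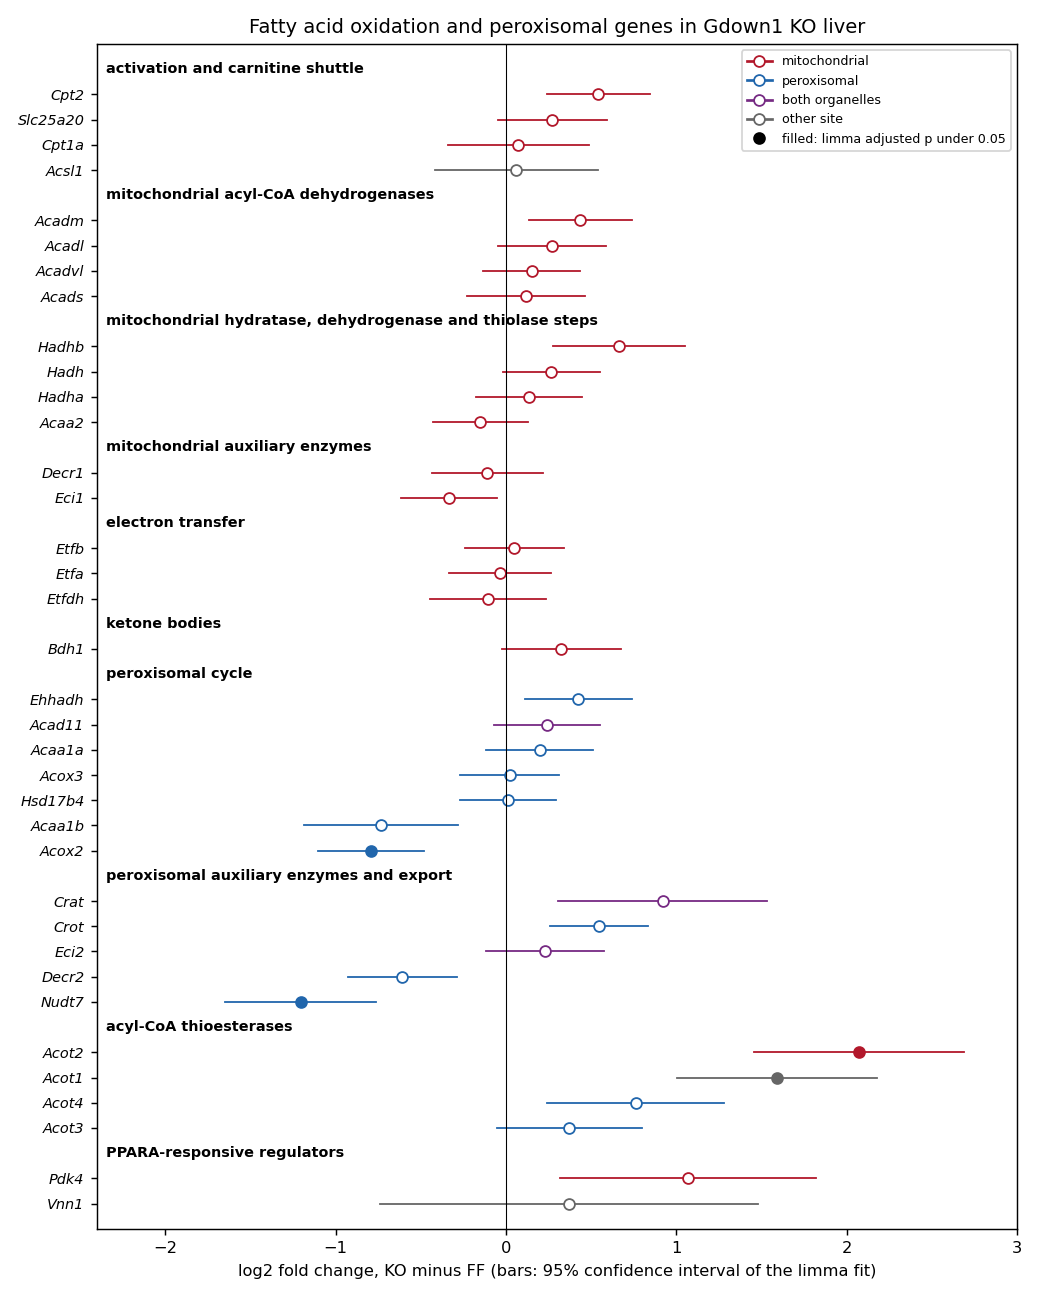
Log2 fold change, KO minus FF, of the 36 measured genes, grouped by the step they serve, with the 95% confidence interval of the limma fit as a bar and the site of the product as colour. Filled points passed a limma adjusted p of 0.05, and these are Acot2 at 2.07, Acot1 at 1.59, Acox2 at -0.79 and Nudt7 at -1.21.

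The acyl-CoA thioesterases, which release free fatty acid from acyl-CoA, held the 2 largest changes of the 36. The genes Acot2, Acot1, Acot4 and Acot3 stand in this order on chromosome 12 (GRCm38.p6), within 72.5 kb from 83987861 to 84060400. Their RefSeq promoter windows, from 250 bases before to 50 after the start, are given because these neighbours all had higher KO values. All 4 are on the plus strand, at chr12:83987611-83987910 for Acot2, chr12:84009252-84009551 for Acot1, chr12:84038129-84038428 for Acot4 and chr12:84051894-84052193 for Acot3. Capitals mark AGGTCA on either strand, the half-site of nuclear receptors such as PPARA, and TATAAA on the strand shown.
Acot2: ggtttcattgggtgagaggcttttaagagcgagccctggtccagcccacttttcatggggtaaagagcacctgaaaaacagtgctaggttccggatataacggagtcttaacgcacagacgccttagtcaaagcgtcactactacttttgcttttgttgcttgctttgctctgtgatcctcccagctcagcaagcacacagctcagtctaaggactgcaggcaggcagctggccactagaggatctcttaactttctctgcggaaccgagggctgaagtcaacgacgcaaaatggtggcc
Acot1: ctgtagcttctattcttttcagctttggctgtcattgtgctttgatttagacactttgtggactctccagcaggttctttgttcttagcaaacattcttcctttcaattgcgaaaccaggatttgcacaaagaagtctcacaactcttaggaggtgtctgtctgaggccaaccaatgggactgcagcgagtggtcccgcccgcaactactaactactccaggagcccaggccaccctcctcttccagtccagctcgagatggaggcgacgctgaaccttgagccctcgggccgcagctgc
Acot4: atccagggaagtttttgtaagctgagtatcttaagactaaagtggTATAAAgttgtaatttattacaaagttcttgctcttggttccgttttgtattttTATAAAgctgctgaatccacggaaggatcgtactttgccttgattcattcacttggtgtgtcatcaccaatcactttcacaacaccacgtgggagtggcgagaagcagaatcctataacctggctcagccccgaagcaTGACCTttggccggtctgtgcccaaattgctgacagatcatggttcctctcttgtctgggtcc
Acot3: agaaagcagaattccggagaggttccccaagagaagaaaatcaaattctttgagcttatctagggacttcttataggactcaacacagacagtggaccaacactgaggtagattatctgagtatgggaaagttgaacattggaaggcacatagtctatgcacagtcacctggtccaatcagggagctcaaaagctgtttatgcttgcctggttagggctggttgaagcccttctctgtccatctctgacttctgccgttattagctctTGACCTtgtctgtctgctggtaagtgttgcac

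The windows of Acot2 and Acot1 hold neither motif. That of Acot4, taken from a RefSeq start inside the span of the gene, has AGGTCA on the opposite strand, from position -13, and TATAAA from -205 and -151. That of Acot3 has AGGTCA on the opposite strand from position 19, counted from 1 at the start site. The 4 windows were unlike each other, with 46.1% to 48.3% identical positions between genes in a global alignment. The full PPAR motif AGGTCANAGGTCA, 2 half-sites spaced by 1 base, searched on both strands, was met with at most 1 mismatch in 0 of 36 windows of 31 members and in 0.554% of 32851 windows of all genes. AGGTCA itself stood in 6 of the 36 windows, or 16.7%, against 16.3% of all windows, and TATAAA in 1, against 8.32%. These are matches of letters in a short window and show nothing of whether a factor binds there or elsewhere.

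Acot2, which encodes the mitochondrial thioesterase, had log2 values of 8.19 and 8.79 on the KO arrays, against 6.18 and 6.66 on the FF arrays. It rose by 2.07 ± 0.25 (SE), or 4.2-fold (limma adjusted p = 0.0261). Acot1, the cytosolic enzyme, had 5.35 and 5.49 in KO, against 4.18 and 3.48 in FF, and rose by 1.59 ± 0.24, or 3.01-fold (limma adjusted p = 0.0422). The averages in the authors' deposited table were 8.92 in KO and 6.52 in FF for Acot2, and 6.9 in KO and 5.13 in FF for Acot1. In both genes the lowest KO array was more than 1 log2 unit above the highest FF array. The FF arrays of Acot1 lay apart from each other, and when single arrays were dropped its change was 1.24 to 1.94. Acot4, a peroxisomal form, had 4.25 and 4.51 in KO and 3.89 and 3.34 in FF. Its log2 fold change of 0.76 ± 0.21 did not pass (limma adjusted p = 0.154), although both KO arrays lay above both FF arrays. Acot3, another peroxisomal form, had 3.52 and 3.29 in KO and 3.22 and 2.85 in FF, not far above background on any array. Its log2 fold change was 0.37 ± 0.17 and did not pass.

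These genes are close paralogs, so their probe sets may share transcripts, and how far the signal of 1 contributes to the next was not tested. Further along the same cluster, Acot5 lay below background on all arrays, at 2.09 and 2.08 in KO and 2.04 and 2.01 in FF. Acot6, named after its values were seen because it ends the cluster, had 3.27 and 3.69 in KO and 2.54 and 2.98 in FF (log2 fold change 0.72 ± 0.21, limma adjusted p = 0.169). The measured genes within 200 kb on either side that are no thioesterases, 6 in number, had log2 fold changes from -0.19 to 0.11 and did not pass. Of these Heatr4, Dnal1 and Pnma1 lay below background by their mean, where a change could hardly be seen.

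**Figure D2:**
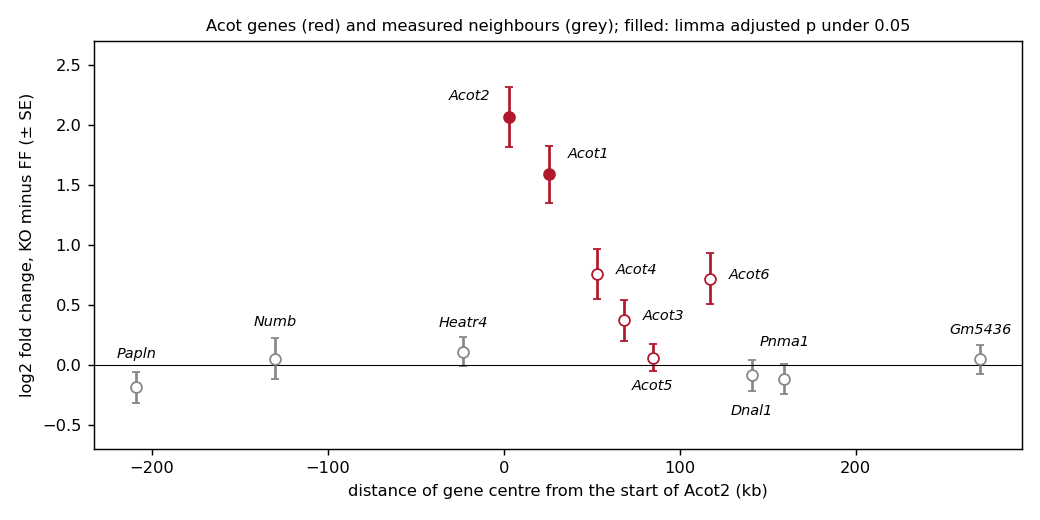
Log2 fold change, KO minus FF, with its limma SE, of the Acot genes and their measured neighbours, against distance from the start of Acot2 in kb. Acot2 and Acot1 stand highest, at 2.07 and 1.59, and the neighbours outside the family lie between -0.19 and 0.11, with Heatr4, Dnal1, Pnma1 and, among the Acot genes, Acot5 below background by their mean.

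Entry into mitochondria showed no passing change. Cpt1a, which makes acyl-carnitine at the outer membrane and sets the rate of entry, had a log2 fold change of 0.07, with a 95% interval from -0.34 to 0.49. Acsl1, which activates long fatty acids, was at 0.06, with an interval from -0.42 to 0.54. Cpt2, which restores acyl-CoA inside, had 8.50 and 8.68 in KO, against 8.05 on both FF arrays. Both KO arrays lay above FF, and its log2 fold change of 0.54 ± 0.12 did not pass (limma adjusted p = 0.108). Slc25a20, the carnitine carrier between both, had 7.79 and 7.93 in KO and 7.50 and 7.68 in FF. The groups were apart by a narrow margin, and its log2 fold change of 0.27 did not pass.

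The 4 mitochondrial acyl-CoA dehydrogenases, which start each turn of the cycle on chains of different length, all had higher means in KO, and 0 passed in limma (1, Acadm, at an unadjusted p under 0.05). Acadm, for medium chains, had 10.34 and 10.24 in KO and 9.92 and 9.79 in FF, a log2 fold change of 0.43 ± 0.12 (limma adjusted p = 0.159). Acadl, for long chains, had 9.13 and 9.34 in KO and 9.003 and 8.93 in FF, a log2 fold change of 0.27. The groups were apart for these and for Acadvl, for very long chains, at 0.15. Acads, for short chains, was at 0.12 with overlapping groups.

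In the later steps Hadhb had a higher mean in KO, with the groups apart, while those of its partner Hadha overlapped. They encode the subunits of the mitochondrial trifunctional protein and lie head to head on chromosome 5 (GRCm38.p6), with 272 bases between their starts at 30154980 and 30155253. The window of Hadhb, at chr5:30155003-30155302 on the plus strand, is given because it covers most of the stretch that both genes share upstream. Capitals mark the transcribed bases of Hadhb, and Hadha runs to the left.
Hadhb: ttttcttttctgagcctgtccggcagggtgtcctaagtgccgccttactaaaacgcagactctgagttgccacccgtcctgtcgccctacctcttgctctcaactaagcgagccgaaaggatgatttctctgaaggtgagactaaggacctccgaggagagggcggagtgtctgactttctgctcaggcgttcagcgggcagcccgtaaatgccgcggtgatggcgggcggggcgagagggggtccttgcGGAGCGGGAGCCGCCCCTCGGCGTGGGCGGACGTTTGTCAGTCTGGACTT

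Hadhb had 8.53 and 8.89 in KO, against 8.11 and 8.00 in FF, where its groups were apart by a wide margin. Its log2 fold change of 0.66 ± 0.16 did not pass (limma adjusted p = 0.118), and a second, dimmer probe set of its own was at 0.44. Hadha had a log2 fold change of 0.14, with a 95% interval from -0.18 to 0.45, and its groups overlapped. The difference between the 2 genes was not tested. Hadh, for short chains, had 10.42 and 10.43 in KO and 10.21 and 10.11 in FF, a log2 fold change of 0.26 that did not pass. Acaa2, a thiolase that ends the cycle, was at -0.15.

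The auxiliary enzymes of unsaturated acids and the electron carriers had no passing change. Eci1, a mitochondrial enoyl-CoA isomerase, had 7.28 and 7.20 in KO, against 7.58 and 7.57 in FF. The KO arrays were both lower, at a log2 fold change of -0.34 ± 0.11 (limma adjusted p = 0.219). Decr1, the mitochondrial dienoyl-CoA reductase, had 6.82 and 6.72 in KO and 6.77 and 6.99 in FF, with overlap and a log2 fold change of -0.11. Etfa, Etfb and Etfdh, which pass electrons from the dehydrogenases to ubiquinone, were at -0.04, 0.05 and -0.11, and all 3 overlapped between groups. Etfdh had 9.62 and 9.85 in KO and 9.78 and 9.91 in FF. Etfb had 8.28 and 8.16 in KO and 8.17 on both FF arrays. The widest 95% interval of the 3, that of Etfdh, ran from -0.45 to 0.23.

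Bdh1, which interconverts the ketone bodies acetoacetate and 3-hydroxybutyrate, had 6.74 and 6.97 in KO and 6.44 and 6.62 in FF. The groups were just apart, and the log2 fold change of 0.32 ± 0.14 did not pass (limma adjusted p = 0.327). Acat1, the mitochondrial acetoacetyl-CoA thiolase, had 10.50 and 10.69 in KO and 9.92 and 9.96 in FF. Its log2 fold change of 0.65 ± 0.13 did not pass (limma adjusted p = 0.0756), although the groups did not overlap.

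The peroxisomal cycle differed from gene to gene. Acox2, the oxidase for bile acid precursors (chromosome 14 from 8225511 to 8259019, GRCm38.p6), had 7.06 and 6.97 in KO, against 7.89 and 7.72 in FF. In log2 terms it fell by 0.79 ± 0.13 (limma adjusted p = 0.0493), with both KO arrays below FF. In the authors' deposited table its averages were 7.42 in KO and 8.68 in FF. Acaa1b, a peroxisomal thiolase, had 7.25 and 7.17 in KO, against 8.19 and 7.70 in FF. Both KO arrays lay below FF, and the log2 fold change of -0.73 ± 0.18 did not pass (limma adjusted p = 0.128). Its close paralog Acaa1a was at 0.20, with both KO arrays above FF, but at -0.18 in the authors' deposited table. Ehhadh, the bifunctional enzyme, was at 0.42 ± 0.13 (limma adjusted p = 0.179). Hsd17b4, the other bifunctional enzyme, was at 0.01, with a 95% interval from -0.27 to 0.30, and the oxidase gene Acox3 at 0.02, or -0.05 with cyclic loess. Acad11, a dehydrogenase reported from both organelles, was at 0.24 and did not pass.

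Among the auxiliary enzymes of peroxisomes, Nudt7 changed most. Nudt7, a hydrolase that degrades CoA and its esters in peroxisomes (chromosome 8 from 114133574 to 114154731, GRCm38.p6), had 8.97 and 9.43 in KO, against 10.33 and 10.48 in FF. In log2 terms it fell by 1.21 ± 0.18, to 0.434 of the FF level (limma adjusted p = 0.0416). The KO arrays were both below FF, array 1 further than array 2, and the change was -1.43 to -0.98 when single arrays were dropped. The authors' deposited table gives averages of 9.7 in KO and 11.0 in FF. Decr2, the peroxisomal dienoyl-CoA reductase, had 8.85 and 9.07 in KO and 9.55 and 9.59 in FF. It did not pass at -0.61 ± 0.13 (limma adjusted p = 0.0940), although both KO arrays lay below FF, and it passed with a variance trend (limma adjusted p = 0.0461).

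The carnitine acyltransferases that export shortened chains lay the other way. Crot, the octanoyltransferase, had 11.18 and 11.24 in KO and 10.62 and 10.72 in FF, a log2 fold change of 0.55 ± 0.12 (limma adjusted p = 0.0935). The groups were clearly apart, and it passed with a variance trend (limma adjusted p = 0.0228). Crat, the acetyltransferase of mitochondria and peroxisomes, had 6.25 and 6.03 in KO and 5.58 and 4.86 in FF. Its FF arrays lay well apart, and the log2 fold change of 0.92 ± 0.25 did not pass (limma adjusted p = 0.146). Eci2, an isomerase of both organelles, was at 0.23 and did not pass.

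Pdk4 and Vnn1 are PPARA-responsive genes outside the cycles. Pdk4, a kinase that turns off pyruvate dehydrogenase and so spares glucose, had 5.54 and 4.99 in KO and 3.81 and 4.60 in FF. The groups did not overlap, and the log2 fold change of 1.07 ± 0.30 did not pass (limma adjusted p = 0.163). Vnn1, a pantetheinase that recycles part of CoA, had 6.39 and 7.53 in KO and 6.12 and 7.07 in FF. Array 2 was the higher one in each group, the groups overlapped, and the 95% interval of its log2 fold change of 0.37 ran from -0.74 to 1.48.

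**Figure D3:**
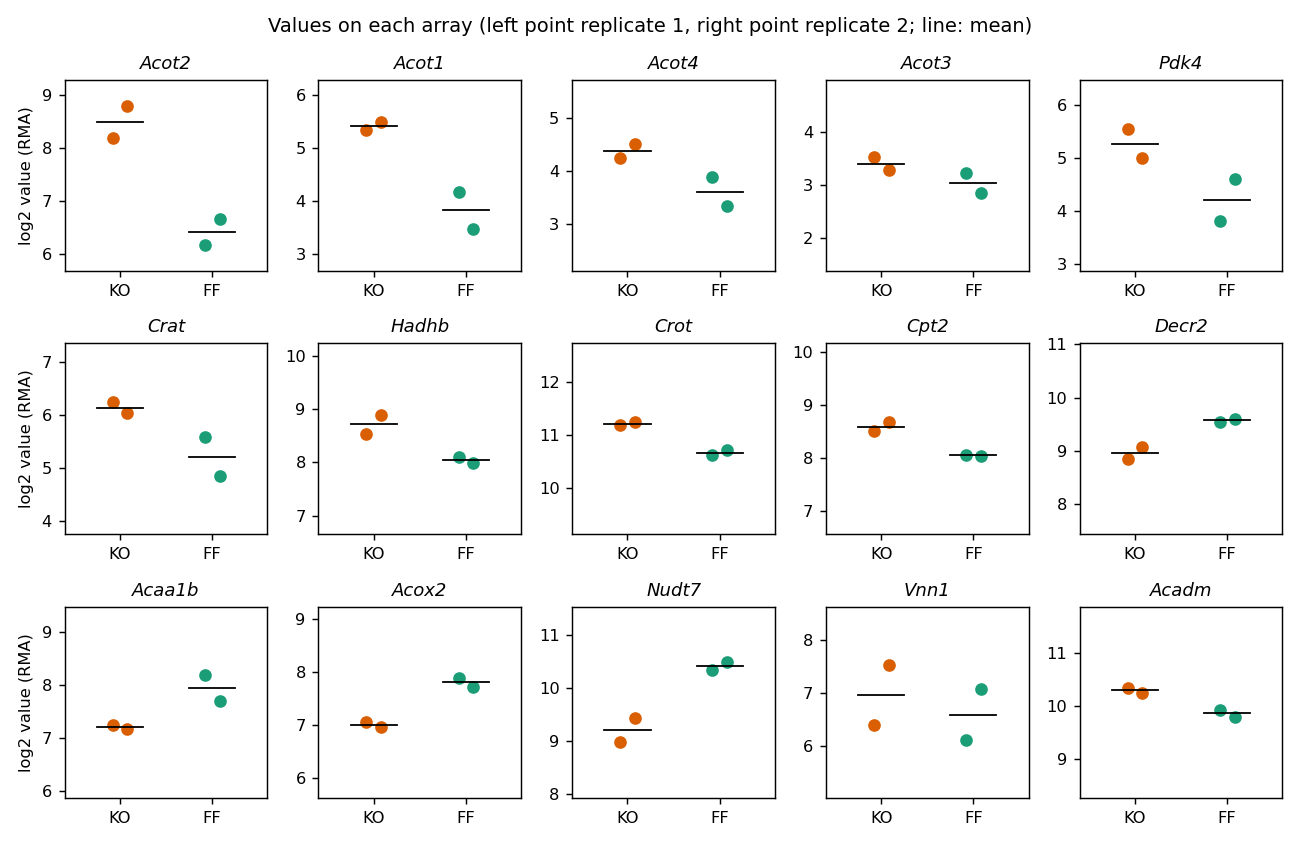
Log2 values on each array of 15 genes, KO left and FF right in each panel, with the mean as a line and the same height of scale in all panels. The groups are apart in all panels but that of Vnn1, with KO lower for Decr2, Acaa1b, Acox2 and Nudt7 and higher for the other genes.

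Mitochondrial and peroxisomal steps were compared by the site of each product. Of 19 measured mitochondrial genes 1 rose, Acot2, and 0 fell, with 5 at an unadjusted p under 0.05 higher and 1 lower. Of 11 peroxisomal genes 0 rose and 2 fell, Acox2 and Nudt7, with 3 at an unadjusted p under 0.05 higher and 4 lower. The mitochondrial changes had a median of 0.15 and ran from -0.34 to 2.07. The peroxisomal changes had a median of 0.02 and ran from -1.21 to 0.76. A log2 fold change of -0.5 or below was seen in 4 of 11 peroxisomal and 0 of 19 mitochondrial genes, and in 3.71% of all genes tested or 6.3% of those above background. A change of 0.5 or above was seen in 2 of 11 peroxisomal and 4 of 19 mitochondrial genes, and in 5.69% of all genes tested or 10.3% of those above background. The difference between the 2 groups of genes was not tested, since genes are not replicates of the mice. Median centring gave 0.17 for mitochondrial and 0.04 for peroxisomal genes, and cyclic loess 0.14 and 0.02. In the authors' deposited table both medians were lower, at 0.03 for mitochondrial and -0.12 for peroxisomal genes. The medians also moved with the gene list. With Acad11, Crat and Eci2 counted as peroxisomal that median was 0.21, and with them counted as mitochondrial that one was 0.23.

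**Figure D4:**
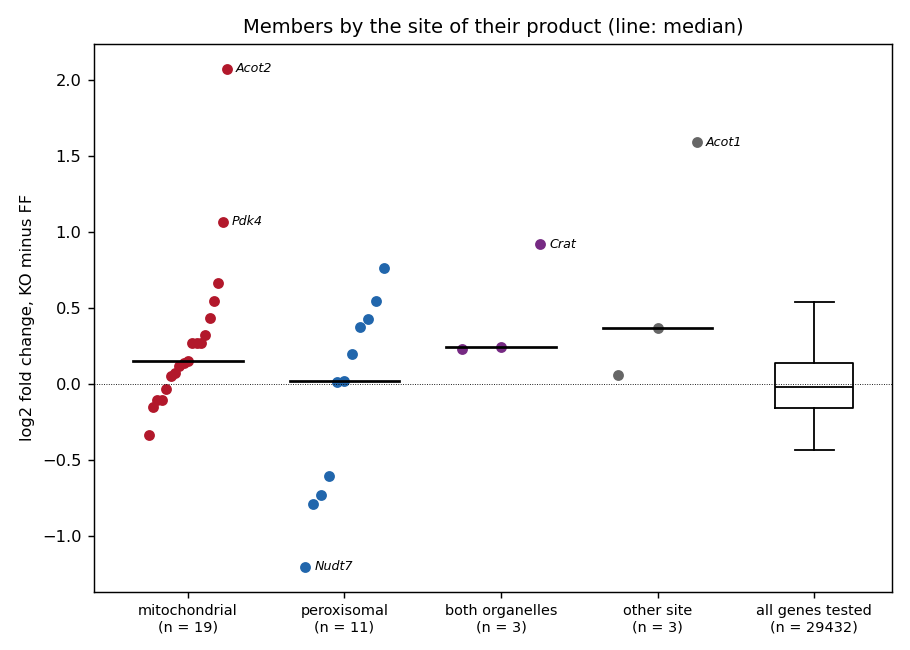
Log2 fold change, KO minus FF, of each measured gene by the site of its product, with medians as lines, and of all genes tested as a box of quartiles with whiskers from the 5th to the 95th percentile. Peroxisomal genes spread from -1.21 to 0.76 around a median of 0.02, and mitochondrial genes from -0.34 to 2.07 around 0.15.

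A wider list of 73 genes of the same pathways, chosen with earlier results of these data known, held 68 measured genes. Of these 0 rose, 6 fell and 62 did not pass, with a median of 0.00, against 0.996% of all genes that rose and 0.778% that fell. All 6 calls were lost with all probe sets tested (limma adjusted p = 0.0803 to 0.116). Phyh, the peroxisomal hydroxylase that starts the breakdown of phytanic acid, had 8.63 and 8.48 in KO and 9.69 and 9.82 in FF, and fell by 1.20 ± 0.13 (SE; limma adjusted p = 0.0197). Acsm5, which activates medium-chain acids in mitochondria, had 7.33 and 7.40 in KO and 8.49 and 8.61 in FF, and fell by 1.18 ± 0.12 (limma adjusted p = 0.0176). Its relative Acsm3 had 7.47 and 7.68 in KO and 8.53 and 8.41 in FF, and fell by 0.90 ± 0.13 (limma adjusted p = 0.0414). In these 3 genes both KO arrays lay below FF.

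Fabp1, the fatty acid binding protein of the hepatocyte cytosol, had 10.06 and 10.15 in KO and 11.03 and 11.09 in FF, and fell by 0.95 ± 0.12 (limma adjusted p = 0.0268). Pccb, a subunit of the carboxylase that handles the propionyl-CoA left from odd chains, had 6.88 and 6.84 in KO and 7.89 and 7.91 in FF, and fell by 1.04 ± 0.11 (limma adjusted p = 0.0204). Ppargc1b, a coactivator of nuclear receptors in oxidative metabolism, had 4.16 and 4.17 in KO and 5.15 and 5.26 in FF, and fell by 1.04 ± 0.12 (limma adjusted p = 0.0214). Both KO arrays lay below FF in all of these. Cyp4a14, a PPARA target, had 6.34 and 7.01 in KO and 8.82 and 7.03 in FF, and its log2 fold change of -1.25 ± 0.57 did not pass. It was -0.35 without FF replicate 1 and -2.15 without FF replicate 2. Among higher means, Cidec, a lipid droplet protein, was at 1.15 ± 0.28, but at 0.74 without KO replicate 2 and at 2.89 in the authors' deposited table. Oxct1, which uses ketone bodies outside the liver, was at 1.00 ± 0.19 and the peroxisomal thioesterase Acot8 at 0.86 ± 0.18, and none of these 3 passed. In the authors' deposited table Oxct1 and Acot8 were at 0.64 and 0.53. The FF values of Oxct1, 3.38 and 3.26, were not far above background. Ppara itself was at -0.08, with a 95% interval from -0.39 to 0.24, and 0 of 16 genes of peroxisome assembly passed (3 at an unadjusted p under 0.05).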

How the data were processed

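Liver RNA of 2 KO and 2 FF mice was measured on arrays, labelled with biotin by a whole-transcript protocol per the labels' protocols. The authors deposited log2 values and, per the submitters' processing notes, used RMA and the Affymetrix Expression Console. RMA equalises the distributions of the arrays, so a change in total RNA cannot be seen. A second deposited table holds the authors' log2 group averages and a signed fold change, called a score here, per the file headers. The sources used here do not say how its averages arose. It supplied gene names, from the mm10 annotation its header names, and, through its averages, a comparison. Of 41345 probe sets, 29945 had 1 symbol, and those made 29432 genes. KO was compared with FF with limma 3.58.1 in R 4.3.3 (lmFit, eBayes), with no block, filter or weights. Residual degrees of freedom were 2, plus 3.795 prior ones. P-values were adjusted by Benjamini-Hochberg over all 29432 genes, and an adjusted p under 0.05 was called. The fit was tested on data simulated under its own assumptions, so that test says nothing of pairing or batch in these arrays. Alternatives were a replicate block, a variance trend, other scalings, other probe set rules, and dropping each array in turn. Errors after ± are limma standard errors. Precision is limited by there being only 4 arrays. Every measured member is given. Array values are given for members called, members whose groups are apart with a log2 fold change of at least 0.5 in size, and the 2 largest changes of each role. Of further genes, those called and the 3 largest changes each way are named, and a few others were added after their values were seen. Members and lists were chosen with earlier results of these data known. Sequences and positions are from RefSeq tables for GRCm38.p6, which held positions for 37 members and promoter windows for 31. Some further genes are not reported here.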

Additional observations from a re-analysis of the deposited data

How the results depend on the processing

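Depending on which single array was dropped, limma called 0 genes and 0 of the 36 (10 to 14 of them at an unadjusted p under 0.05), and the medians were 0.0937 to 0.233 for mitochondrial and 0.0172 to 0.0816 for peroxisomal genes. In those fits the sign turned for Acads (-0.0255 to 0.259), Acox3 (-0.0397 to 0.0816), Cpt1a (-0.098 to 0.242), Vnn1 (-0.202 to 0.939), Acsl1 (-0.199 to 0.317), Etfa (-0.115 to 0.0453), Etfb (-0.012 to 0.109), Etfdh (-0.225 to 0.0101) and Hsd17b4 (-0.0304 to 0.0562), and with cyclic loess Acox3 was at -0.0477. None of these genes passed in any fit, and the cause was not tested. Acot2, Acot1, Nudt7, Acox2 and Polr2m kept their sign in every setting. With the replicate number as a block, 30 genes passed and 0 of the 36 (18 at an unadjusted p under 0.05), with limma adjusted p = 0.0548 for Acot2, 0.132 for Acot1, 0.104 for Nudt7, 0.129 for Acox2 and 0.104 for Polr2m, and 0.0935 to 0.14 for the 6 further genes that fell. Deviations of same-numbered arrays correlated at -0.0064 over all genes, which with so few arrays cannot show whether the numbers pair animals. With all 41345 probe sets tested, 42 passed and 0 of the 36 (15 at an unadjusted p under 0.05). A variance trend called 678 genes and 6 of the 36, adding Crot and Decr2. With robust moderation added, it called 975 genes and 7 of the 36, adding Cpt2. Without the dimmer 50% of genes 850 passed, median centring gave 476 higher and 302 lower, and cyclic loess 343 higher and 330 lower, each with the same 4 of the 36. The authors' deposited table gives medians of 0.03 for mitochondrial and -0.12 for peroxisomal genes. The same sign stood there for 27 of the 36, all 4 called ones included, and the 8 of opposite sign had changes of at most 0.271 in size. In settings chosen after seeing the data, counting Acad11, Crat and Eci2 as peroxisomal gave that median as 0.213, and counting them as mitochondrial gave that one as 0.233.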
